A study of Mus musculus with 18 samples.

Results

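Interferon-stimulated genes were followed in the mouse gastrocnemius, a fast-twitch muscle of the calf, at 3 ages. The list names 9 genes, Irf7, Ifit1, Ifit2, Ifit3, Isg15, Oasl2, Gbp2, Bst2 and Rsad2. A gene was measured through a probeset, the set of array probes read together as 1 value, that the platform annotation gives to that gene alone. Of the 9 genes, 7 had such a probeset (1 each, among 15300 probesets and 13255 genes with a single symbol). Ifit3 was annotated only on a probeset shared with its near copy Ifit3b, and Isg15 on none, so neither is given a value here.

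All mice were C57BL/6 males, and the compared groups were muscles taken at 2, 11 and 25 months. Each age had 6 biological replicates, each with muscle of both legs on its own Affymetrix whole-transcript array. No batch is named in the labels. Tests therefore measure the spread between 6 arrays of an age.

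Interferons are secreted proteins that cells release on sensing viral or misplaced nucleic acid. Their receptors signal through Janus kinases to STAT proteins and the partner factor Irf9, which bind the interferon-stimulated response element in front of target genes. A low tonic signal keeps many of these targets weakly expressed in healthy tissue, muscle included. Higher expression of interferon targets has been described in several aged tissues.

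The interferon-stimulated response element was looked up first in front of these genes. The window was the 250 bases before each gene's RefSeq start (GRCm38.p6), and the motif was its core, GAAA, any 2 bases and GAAA again, or the reverse complement, TTTC, any 2 bases and TTTC. It was present in 6 of the 9 genes, Ifit1, Ifit3, Isg15, Gbp2, Bst2 and Rsad2, and in 3.46% of all 27025 genes with a promoter entry. Of the 7 measured genes, 4 held it. Their stretches are shown on the gene's strand, 5′ to 3′, with the matches in capitals. They lie at chr19:34640760-34640838 (plus strand) for Ifit1, chr3:142620579-142620638 (plus) for Gbp2, chr8:71537562-71537627 (minus) for Bst2 and chr12:26456538-26456597 (minus) for Rsad2.
Ifit1: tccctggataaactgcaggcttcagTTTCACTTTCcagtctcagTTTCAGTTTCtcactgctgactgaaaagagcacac
Gbp2: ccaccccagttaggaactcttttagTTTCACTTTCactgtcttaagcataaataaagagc
Bst2: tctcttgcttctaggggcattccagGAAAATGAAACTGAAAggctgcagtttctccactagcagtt
Rsad2: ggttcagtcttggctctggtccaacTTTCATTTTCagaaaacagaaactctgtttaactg

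Ifit1 held 2 separate matches, the nearer one ending 76 bases before the start, and Gbp2 and Rsad2 held 1 each. The 2 matches of Bst2 overlap each other. The palindromic gamma-activated sequence TTCNNNGAA, bound by STAT dimers, was found in 8.13% of all genes. Among the 9 it was in Bst2, where it overlaps the response element, and in 1 of the 2 windows of Ifit2. The windows of Irf7, Ifit2 and Oasl2 did not contain the response element core.

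The signal of the 7 genes ran from low, for Ifit1, to near the middle of all probesets, for Bst2. Mean log2 intensity over the 18 arrays ran from 5.23 for Ifit1 to 6.60 for Bst2, below the median of all probesets (6.63 log2 units) in each case, and Ifit1 lay below the lower quartile of all probesets (5.59). No detection call accompanies the values, so how much of these signals is background was not tested.

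Oasl2 was lower at 11 than at 2 months, and the other 6 genes passed no test in any pair of ages. By limma's linear model with adjustment over all probesets, 0 of 7 genes were called higher and 1 lower for 11 against 2 months, where 19.1% of all probesets were called in either direction, 11.9% higher and 7.18% lower. An unadjusted p under 0.05 was reached there by 2 of the 7, Irf7 and Oasl2, against 35.8% of all probesets. For 25 against 11 months 0 of 7 were called, against 0.150% of all probesets (0.0588% higher and 0.0915% lower). An unadjusted p under 0.05 was reached by 0 of the 7, against 10.4% of all. For 25 against 2 months 0 of 7 were called, against 17.4% (10.5% higher and 6.95% lower), and 1, Oasl2, had an unadjusted p under 0.05, against 30.0% of all. The one-way test with Tukey's comparison, which the series text names, called 1, 0 and 1 genes in the same order, Oasl2 each time. In no gene and no pair of ages did all arrays of an age lie beyond all arrays of the other, a separation seen for 6.42%, 1.12% and 7.23% of all probesets.

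**Figure D1:**
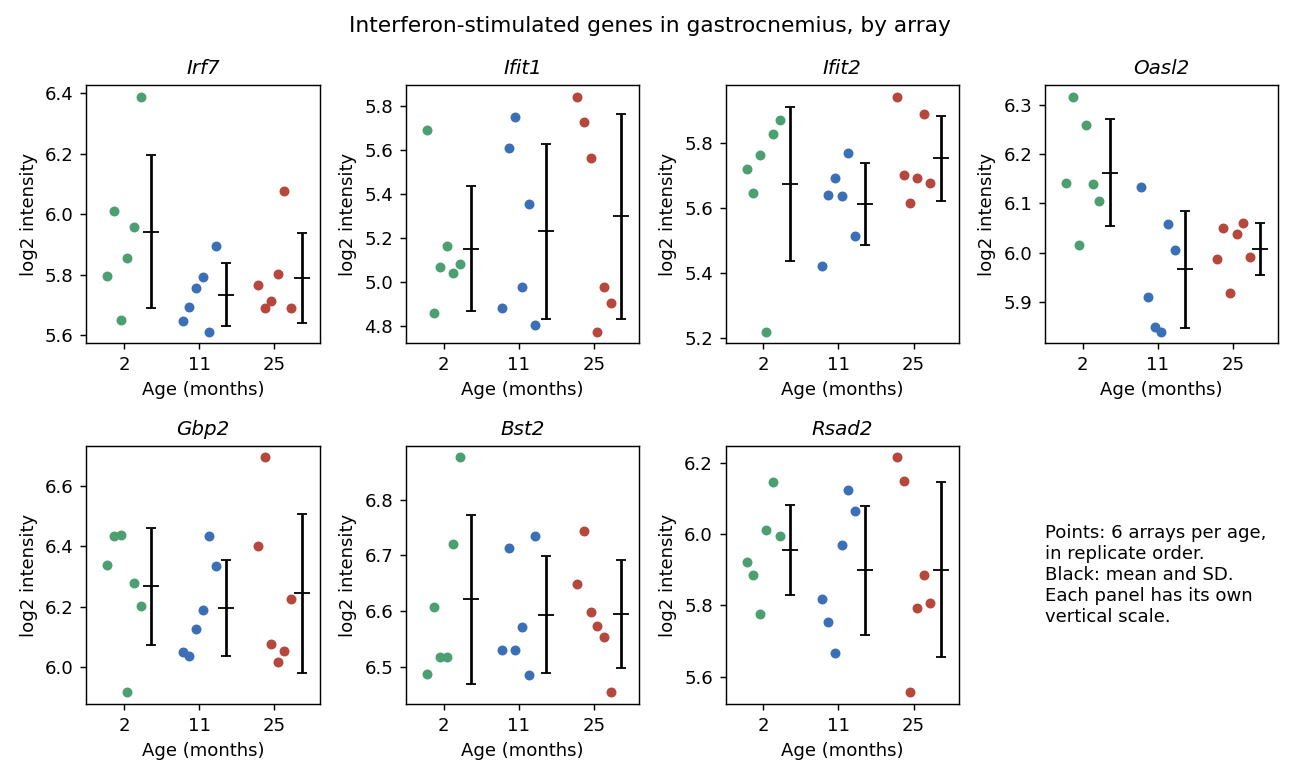
Log2 intensity (vertical axis, a separate scale per panel) of the 7 measured genes at 2, 11 and 25 months (horizontal axis); each point is 1 array and the black bar is the mean with SD over 6 arrays. The ages overlap in every panel, and the Oasl2 arrays sit lower at 11 than at 2 months, with means of 5.97 and 6.16.

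Irf7 encodes the transcription factor that amplifies production of type I interferon. Its log2 intensity ran from 5.65 to 6.39 at 2 months (median 5.91), from 5.61 to 5.90 at 11 months (median 5.73) and from 5.69 to 6.08 at 25 months (median 5.74). The highest value of all was replicate 6 at 2 months, and most arrays of every age lay in a common band below it. The log2 change from 2 to 11 months was -0.21 ± 0.10 (SE) with a 95% interval of -0.41 to -0.01, and it did not pass after adjustment over all probesets (adjusted p = 0.121). Without replicate 3 of the 2-month group it passed (adjusted p = 0.0436). Replicate 6 at 2 months, the highest array for Irf7, also had the highest summed B and plasma cell markers and T and NK cell markers of the 18 arrays, and without it the log2 change was -0.12 (adjusted p = 0.282). The part of those cells was not tested. From 11 to 25 months the change was 0.06 ± 0.10 (adjusted p = 0.872).

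Ifit1 and Ifit2 encode proteins that bind viral RNA and block its translation. Ifit1 stood out for its spread rather than for age. At 2 months its lowest, median and highest log2 intensities were 4.86, 5.08 and 5.69, at 11 months 4.81, 5.17 and 5.75, and at 25 months 4.78, 5.27 and 5.84. At each age some arrays were high and others low, with replicate 1 high at 2 months, replicates 2 and 3 at 11 months and replicates 1, 2 and 3 at 25 months. The lowest and highest of the 18 arrays differed 2.10-fold. The SD within ages was 0.39 log2 units, higher than that of 99.4% of all probesets, whose median was 0.12.

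Age means of Ifit1 were 5.15 ± 0.28, 5.23 ± 0.40 and 5.30 ± 0.47 log2 units at 2, 11 and 25 months (SD, n = 6). For 25 against 2 months the log2 change of 0.15 had a 95% interval of -0.27 to 0.56 (adjusted p = 0.664). In folds that interval runs from 0.832 to 1.47. Ifit2 had means of 5.67 ± 0.24, 5.61 ± 0.13 and 5.75 ± 0.13. Its lowest array was replicate 4 at 2 months (5.22), while the other 17 arrays lay between 5.42 and 5.94. The largest change of Ifit2 was 0.14 ± 0.09 (SE) from 11 to 25 months, with a 95% interval of -0.05 to 0.33 (adjusted p = 0.619).

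Oasl2 encodes an oligoadenylate synthetase-like protein with an antiviral role in mice, and it was the gene that passed. At 2 months its log2 intensity ran from 6.01 to 6.32 (median 6.14), at 11 months from 5.84 to 6.13 (median 5.96) and at 25 months from 5.92 to 6.06 (median 6.01). Of the 6 arrays at 11 months, 3 lay below every 25-month array, and the 2-month and 11-month ranges overlapped between 6.01 and 6.13. Oasl2 fell 1.15-fold from 2 to 11 months (log2 change -0.20 ± 0.06 SE, 95% interval -0.32 to -0.07, adjusted p = 0.0245). Over the 3 ages together it was also the gene called by the moderated F statistic (adjusted p = 0.0428), 1 of 7 against 19.2% of all probesets, and 1 of 7 had an unadjusted p under 0.05 for that statistic, against 33.8%. That call was kept on leaving out replicate 3 at 2 months, replicate 1 or 5 at 11 months or replicate 5 at 25 months, and ended on leaving out any of the other 14 arrays. From 11 to 25 months the change was 0.04 ± 0.06 (adjusted p = 0.841), and for 25 against 2 months -0.15 ± 0.06 (adjusted p = 0.0747). The last passed without replicate 3 at 2 months (adjusted p = 0.0323) and by the one-way test (adjusted p = 0.0487).

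The Oasl2 call lay close to the threshold. Leaving out replicate 2 or 4 at 2 months or replicate 3 or 4 at 11 months ended it, with adjusted p of 0.0631, 0.0572, 0.0605 and 0.0545. The width of each array's signal distribution was the upper minus the lower quartile of its log2 values, called signal range here. It ran from 2.03 to 2.35 at 2 months, 2.25 to 2.45 at 11 months and 2.13 to 2.37 at 25 months. With that range as a covariate the Oasl2 log2 change was -0.16 and the adjusted p was 0.198. Signal range varied with age, so the parts of age and of signal range in that change cannot be told apart.

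Gbp2 encodes a guanylate-binding GTPase that acts on intracellular pathogens. Its means were 6.27 ± 0.20, 6.19 ± 0.16 and 6.24 ± 0.26 log2 units at 2, 11 and 25 months (SD, n = 6). The highest array was replicate 2 at 25 months (6.70) and the lowest replicate 4 at 2 months (5.91). The largest difference between ages was -0.07 ± 0.11 (SE) for 11 against 2 months, within a 95% interval of -0.30 to 0.16 (adjusted p = 0.648).

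Bst2 encodes tetherin, which holds budding viruses at the cell surface. It was nearly level with age, at 6.62 ± 0.15, 6.59 ± 0.10 and 6.59 ± 0.10 log2 units (SD, n = 6). For 25 against 11 months its 95% interval of -0.14 to 0.14 spans folds of 0.907 to 1.10 (adjusted p = 0.996). Rsad2 encodes viperin, an enzyme that makes an antiviral nucleotide analogue. Its means were 5.96 ± 0.13, 5.90 ± 0.18 and 5.90 ± 0.25. At 25 months the arrays spread widest, from 5.56 in replicate 3 to 6.21 in replicate 1. The 95% interval of Rsad2 for 25 against 11 months was -0.21 to 0.21 (adjusted p = 0.996).

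**Figure D2:**
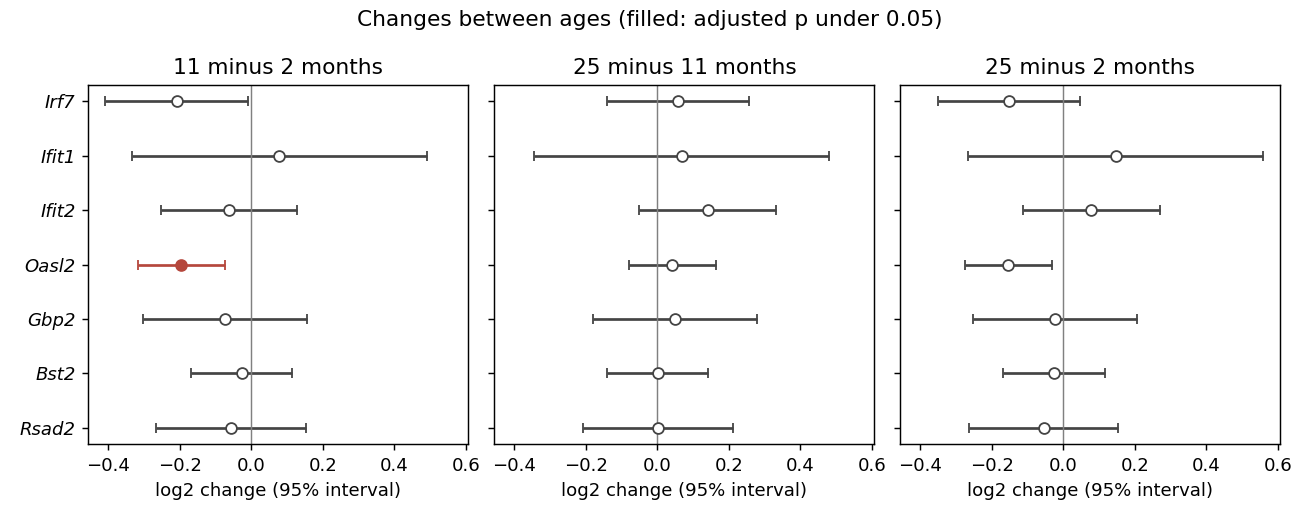
Log2 change (horizontal axis) of each gene between ages, with the 95% interval from limma's model, 1 panel per pair of ages. The filled symbol, Oasl2 for 11 minus 2 months, is the change with an adjusted p under 0.05, and all intervals for 25 minus 11 months include 0.

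As a group the 7 genes had a median log2 change of -0.06 from 2 to 11 months, beside -0.02 over all probesets. Of the 7 values 6 were below 0 and 1 above, while 46.2% of all probesets were above 0. From 11 to 25 months the median was 0.05, beside 0.002, and 7 of 7 values were above 0, as were 51.2% of all probesets. The individual values in that pair ran from 0.001 for Bst2 to 0.14 for Ifit2, each with a 95% interval that includes 0. From 2 to 25 months the median was -0.03, beside -0.01 over all probesets. There 2 of 7 values, those of Ifit1 and Ifit2, were above 0, as were 45.5% of all probesets. The pairs of ages share arrays, so these summaries are not independent of each other.

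Mice of the same age differed from each other in these genes, and most pairs of the genes correlated only weakly. Each array's value was taken as its deviation from the mean of its age, and Pearson's r was computed over the 18 arrays as a description. Among the 21 pairs of genes r was above 0 in 16 (76.2%, beside 50.6% over all gene pairs) and its median was 0.19 (0.01 over all). Pairs with r above 0.5 were no commoner than elsewhere, at 9.52% beside 8.41%. The closest pair was Irf7 with Bst2 (r = 0.60, Spearman's rho 0.56, and r = 0.52 without the 2 arrays farthest from the Irf7 median). Gbp2 with Rsad2 followed (r = 0.52, rho 0.48, and 0.55 without 2 arrays). Ifit2 with Gbp2 came next (r = 0.41, rho 0.37), but r was 0.05 without 2 arrays. Leaving out 2 arrays also turned Irf7 with Ifit2 (0.30 to -0.02) and Gbp2 with Bst2 (0.19 to -0.13) negative. It raised Oasl2 with Rsad2 (0.32 to 0.54). Oasl2 went against Ifit2 (r = -0.39, but -0.10 without 2 arrays) and Ifit1 (r = -0.33), and Irf7 against Ifit1 (r = -0.30). Ifit1 had positive r with Gbp2 (0.26), Ifit2 (0.22), Bst2 (0.07) and Rsad2 (0.06). Without 2 arrays these r were 0.18, 0.10, 0.18 and -0.12. The values share array, tissue piece and RNA preparation, and what drives them was not tested.

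**Figure D3:**
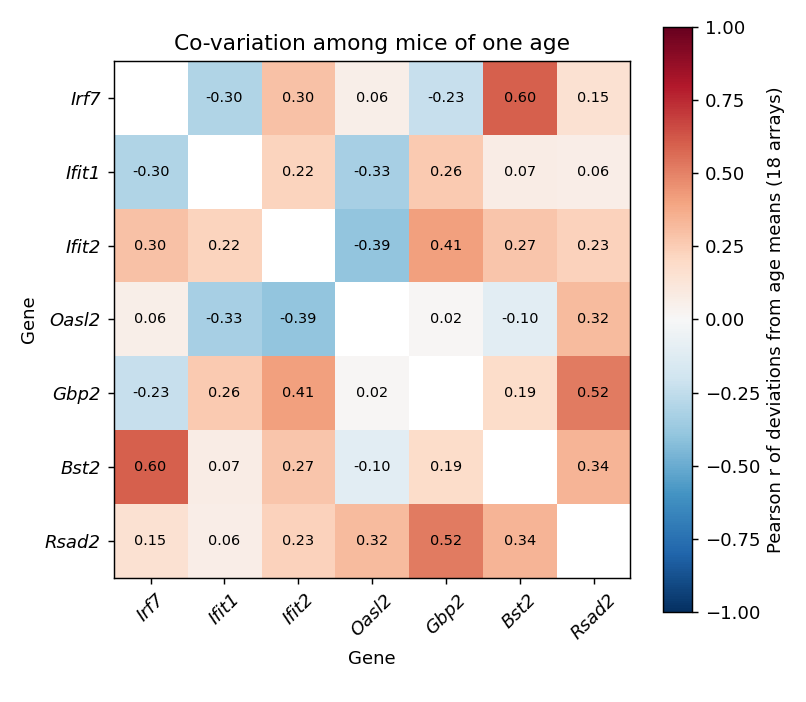
Pearson r between each pair of the 7 genes (both axes), computed on deviations from age means over 18 arrays; red is positive and blue negative. The highest value is 0.60 for Irf7 with Bst2 and the lowest -0.39 for Ifit2 with Oasl2.

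The 8 genes that most resembled the family's mean deviation, each member divided by its SD, were Pgf, Serpinb6c, Ly6e, Tor3a, Lrpap1, Ifitm3, Pmf1 and Jagn1, out of 13248 genes compared. Their r ran from 0.76 to 0.87 over 18 arrays and from 0.69 to 0.86 without the 2 farthest arrays. Of the 8, Ly6e (r = 0.82), Tor3a (r = 0.79) and Ifitm3 (r = 0.78) also stand on the list of other interferon-stimulated genes, of which 36 were measured. Ifitm3 encodes a membrane protein that blocks viral entry, and Ly6e a surface protein that restricts coronaviruses. The family mean was highest in replicates 2 and 1 at 25 months and replicate 6 at 2 months (0.82, 0.76 and 0.74 SD units). The lowest were replicate 4 at 2 months (-0.66) and replicate 3 at 25 months (-0.61). Deviations were taken from each age's own mean, so this measure cannot show a difference between ages.

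The rest of the pathway was read from lists of other targets, interferon-induced GTPases, receptors and signalling proteins, nucleic acid sensors, interferon genes and class I antigen presentation. For 25 against 11 months 0 genes of these 6 lists passed limma's test, beside 0.150% of all probesets. An unadjusted p under 0.05 was reached by 4 of 36, 2 of 6 and 2 of 18 in that order. For the remaining lists it was 0 of 14, 0 of 5 and 1 of 8, beside 10.4% of all probesets. The one-way test with Tukey's comparison called 1 GTPase there, Gvin1, and 0 genes of the other 5 lists, beside 461 of all 15300 probesets.

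Of 18 measured receptor and signalling genes, 6 were lower at 11 than at 2 months and 0 higher, beside 7.18% of all probesets called lower. Jak2, a kinase bound to the interferon gamma receptor and to several hormone and cytokine receptors, had a log2 intensity of 8.87 to 9.51 at 2 months, 8.78 to 8.98 at 11 months and 8.60 to 8.87 at 25 months. Replicate 4 at 2 months, the lowest of its age, lay among the 11-month arrays. Jak2 fell 1.30-fold by 11 months (log2 change -0.37 ± 0.08 SE, adjusted p = 0.00297) and was 1.43-fold lower at 25 than at 2 months (adjusted p = 1.28e-04).

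Irf9, the DNA-binding partner of the STAT proteins, ran from 6.53 to 6.95 at 2 months and from 6.25 to 6.51 at 11 months, so the ages did not overlap. It fell by 0.29 ± 0.07 log2 units (SE; adjusted p = 0.00508) and stayed lower at 25 months (log2 change from 2 months -0.21, adjusted p = 0.0320). Stat2, which pairs with Irf9, had log2 changes of -0.24 (adjusted p = 0.00578) and -0.20 (adjusted p = 0.0179), and was chosen after its values were seen. Irf2, a factor that competes for the same DNA element, was lower by 25 months (log2 change -0.25, adjusted p = 0.00385).

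At 25 against 2 months 8 of the 18 were lower and 0 higher, beside 6.95% of all probesets called lower. The median log2 change of the list was -0.10 for 11 against 2 months and -0.18 for 25 against 2 months, beside -0.02 and -0.01 over all probesets. With signal range in the model, or without replicate 5 at 11 months, the 6 lower genes became 3. The 8 became 5 without replicate 1 at 25 months and 6 by the one-way test, but 10 with signal range in the model. The receptor chain Ifnar1 did not pass in any pair of ages (log2 change 0.01 for 11 against 2 months, adjusted p = 0.931). Its log2 change was -0.13 for 25 against 11 months (adjusted p = 0.473) and -0.12 for 25 against 2 months (adjusted p = 0.189). The receptor chain Ifnar2 was among the 8 genes lower at 25 than at 2 months (log2 change -0.24, adjusted p = 0.0199). It did not pass for 11 against 2 months (-0.10, adjusted p = 0.289). Ifnar1 and Ifnar2 were named after their values were seen.

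**Figure D4:**
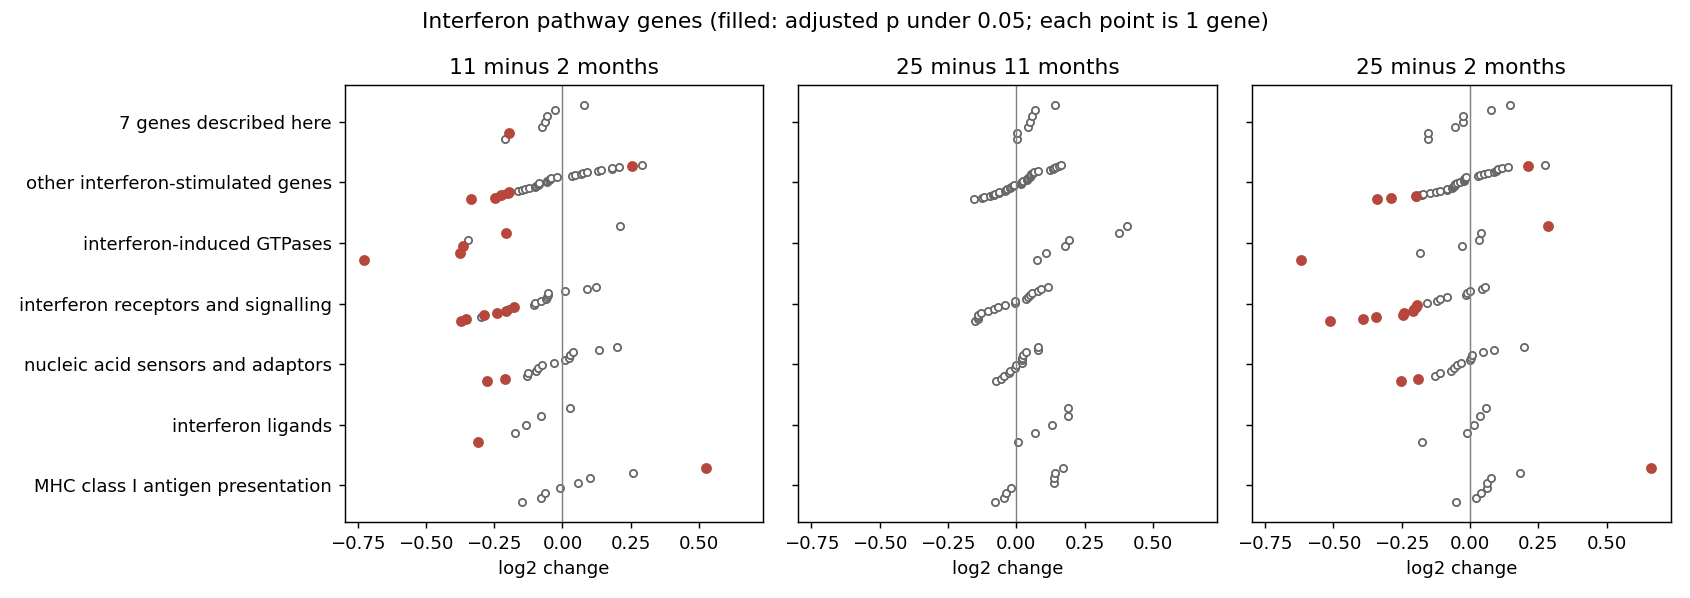
Log2 change (horizontal axis) of every measured gene of the 7 described here and of 6 pathway lists (rows), 1 panel per pair of ages; filled points have an adjusted p under 0.05. Filled points lie mostly below 0 for 11 minus 2 and 25 minus 2 months, and there are none for 25 minus 11 months.

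Of 6 measured interferon-induced GTPases, 4 were lower at 11 than at 2 months and 0 higher, beside 7.18% and 11.9% of all probesets. At 25 against 2 months 1 was lower, Gbp7, and 1 higher, Irgm1, beside 6.95% and 10.5%. Without replicate 2 at 25 months 2 were lower. Gbp7, a guanylate-binding protein and paralog of Gbp2, ran from 7.77 to 8.34 log2 units at 2 months, 7.12 to 7.51 at 11 months and 7.23 to 7.81 at 25 months. Every 2-month array lay above every 11-month array. It fell 1.66-fold by 11 months (log2 change -0.73 ± 0.10 SE, adjusted p = 8.95e-05) and was still 1.53-fold lower at 25 than at 2 months (adjusted p = 2.87e-04). The very large GTPase Gvin1 fell 1.29-fold by 11 months (adjusted p = 0.00640). At 25 months it was 6.38 to 6.93, apart from the 6.05 to 6.36 of 11 months, although that rise in values did not pass (log2 change 0.40 ± 0.09 SE, adjusted p = 0.0664). The other lower genes, Gbp3 (log2 change -0.37, adjusted p = 0.0138) and Gbp5 (-0.21, adjusted p = 0.0311), were named after their values were seen. By the one-way test the 4 became 2. Irgm1, which helps to clear intracellular bacteria, was higher at 25 than at 2 months (log2 change 0.29, adjusted p = 0.0231). That call of Irgm1 ended without replicate 2, 4 or 5 at 2 months or replicate 1 or 2 at 25 months (adjusted p up to 0.0634), and by the one-way test (adjusted p = 0.0779). Guanylate-binding genes are close paralogs, and how far their probes cross-hybridise was not tested.

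Of 36 other measured interferon targets, 5 were lower and 1 higher at 11 than at 2 months, with a median log2 change of -0.07, beside 7.18% and 11.9% of all probesets and a median of -0.02. Oas2, an enzyme that makes the activator of RNase L, fell by 0.33 log2 units (SE 0.07, adjusted p = 0.00181) from 5.57 ± 0.14 to 5.23 ± 0.08 (SD, n = 6). Its mean at each age lay below the lower quartile of all probesets (5.59). Ifi35 fell by 0.23 (adjusted p = 0.00424) and was 0.29 log2 units below its 2-month level at 25 months (log2 change -0.29, adjusted p = 4.44e-04). The others lower at 11 months were Trim30a, Oas1b and Slfn5 (log2 changes of -0.25, -0.20 and -0.19), named after their values were seen. Oas1b, like Oas2, had age means below the lower quartile of all probesets. The higher gene was Ifi27 (log2 change 0.25, adjusted p = 0.0115), which lost its call once signal range was in the model (adjusted p = 0.201). Leaving out single arrays gave 1 to 3 higher genes, with more than 1 without replicate 1, 5 or 6 at 2 months, 1 or 4 at 11 months, or 1 or 3 at 25 months. The 5 became 3 without replicate 2 at 2 months or replicate 5 at 11 months, with the covariate and by the one-way test.

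At 25 against 2 months 3 of the 36 were lower and 1 higher, beside 6.95% and 10.5% of all probesets. The lower genes were Ifi35, Ifi27l2a (log2 change -0.34, adjusted p = 0.00535) and Trim30a (-0.20, adjusted p = 0.0486, named after its values were seen). The higher was Dtx3l, a ubiquitin ligase induced by interferon (0.21, adjusted p = 0.0308), whose call ended without replicate 2, 4 or 5 at 2 months or replicate 1, 2 or 3 at 25 months (adjusted p up to 0.0827), with signal range in the model (0.0780), by the one-way test (0.0896) and in the fit of those 2 ages (0.0529).

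Among 14 nucleic acid sensors and adaptors 2 were lower at 11 than at 2 months and 0 higher, beside 7.18% and 11.9% of all probesets. At 25 against 2 months the counts were again 2 and 0, beside 6.95% and 10.5%. Ddx58, which encodes the RNA sensor RIG-I, ran from 5.96 to 6.27 log2 units at 2 months and from 5.74 to 5.89 at 11 months, without overlap. It fell by 0.27 ± 0.06 log2 units (SE; adjusted p = 0.00245) and was 0.25 units lower at 25 than at 2 months (log2 change -0.25, adjusted p = 0.00361). The kinase Ikbke, which activates interferon regulatory factors, fell by 0.21 log2 units by 11 months (adjusted p = 0.00988, and 0.178 with signal range in the model). Its signal was dim, with age means of 5.55, 5.34 and 5.36, below the lower quartile of all probesets (5.59). Of 5 interferon genes measured, 4 had dim probesets below the lower quartile. Ifng, interferon gamma, was 1 of those 4, with age means of 5.41, 5.10 and 5.23. At 11 against 2 months 1 of the 5 genes was lower and 0 higher, beside 7.18% and 11.9% of all probesets. The lower gene was Ifng (log2 change -0.31, adjusted p = 0.0245). That call ended without replicate 2, 5 or 6 at 2 months or replicate 3 or 5 at 11 months (adjusted p up to 0.0640). It also ended with the covariate (adjusted p = 0.286), after quantile normalization (adjusted p = 0.0567) and by the one-way test.

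Of 8 measured genes of class I antigen presentation 1, B2m, was higher at 11 and at 25 than at 2 months and 0 were lower, beside 11.9% and 10.5% of all probesets called higher. B2m, the light chain of class I molecules, ran from 9.32 to 9.78 log2 units at 2 months, 9.94 to 10.39 at 11 months and 9.86 to 10.47 at 25 months. Every 2-month array lay below all arrays of the later ages. It rose 1.44-fold by 11 months (log2 change 0.53 ± 0.11 SE, adjusted p = 0.00212) and was 1.58-fold higher at 25 than at 2 months (adjusted p = 1.89e-04). With signal range in the model its change by 11 months had an adjusted p of 0.0569. Without replicate 1 or 3 at 2 months 2 genes of the list were higher at 11 months. The other 7, the peptide transporter Tap1 among them (log2 change 0.08 for 25 against 2 months, adjusted p = 0.618), did not pass; Tap1 was chosen after its values were seen.

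**Figure D5:**
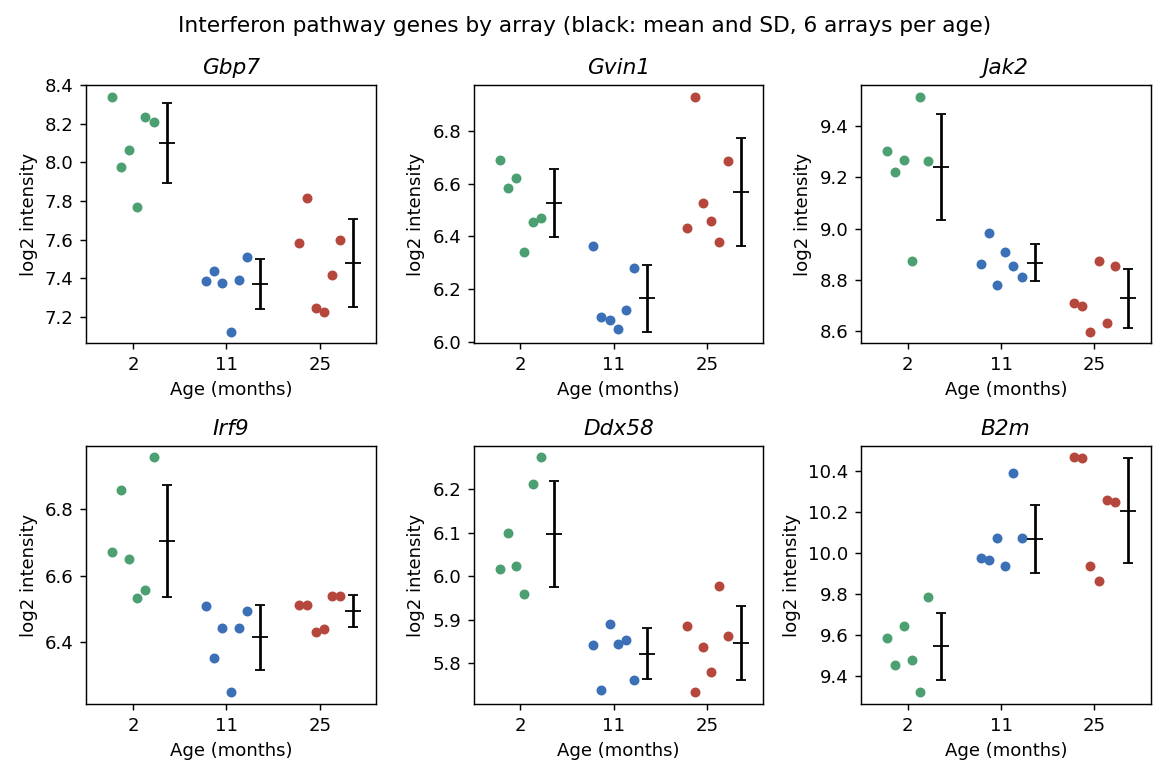
Log2 intensity (vertical axis, a separate scale per panel) of Gbp7, Gvin1, Jak2, Irf9, Ddx58 and B2m by age in months; points are arrays and black bars the mean with SD over 6 arrays. The 2-month arrays of Gbp7, Irf9 and Ddx58 lie above all 11-month arrays and those of B2m below all of them.

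Whole muscle holds fibres, vessels and immune cells, and in such samples fewer cells of a type and less RNA per cell cannot be told apart. Fast fibre genes, the defining markers of this muscle, were bright. Of 7, 2 were lower at 11 than at 2 months, beside 7.18% of all probesets called lower. They were Mylpf (log2 change -0.24, adjusted p = 0.00295) and Tnnt3 (-0.16, adjusted p = 0.0464). Of 11 macrophage markers 2 were higher at 11 than at 2 months, C1qc (0.33, adjusted p = 0.0229) and Csf1r (0.23, adjusted p = 0.0452), beside 11.9% of all probesets. The 2 became 0 with signal range in the model and by the one-way test. At 25 against 2 months 1 was higher, Cd68 (0.28, adjusted p = 0.0331), beside 10.5% of all probesets, and by the one-way test 0 were. Summed macrophage intensity was 857 to 1228 units at 2 months, 1052 to 1227 at 11 months and 1014 to 1218 at 25 months. T and NK cell markers were dim, with 8 of 9 below the lower quartile of all probesets. At 11 months 1 of the 9, Cd2, was lower (-0.21, adjusted p = 0.0494), beside 7.18% of all probesets. The summed intensity of the T and NK cell markers was 324 to 398, 302 to 334 and 326 to 364 units at the 3 ages.

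Neutrophil markers had 1 of 7 lower at 11 months, Retnlg (-0.22, adjusted p = 0.0261), beside 7.18% of all probesets. Of these 7, 6 lay below the lower quartile of all probesets. B and plasma cell markers had 0 of 7 called, with Pax5 nearest (adjusted p = 0.0560), and plasmacytoid dendritic cell markers 0 of 4, with Siglech nearest (adjusted p = 0.162). Pax5 passed without replicate 1, 3 or 5 at 2 months or 1 at 11 months, and Siglech without replicate 6 at 2 months. The unadjusted p was under 0.05 for 1 of 7 B and plasma cell genes at 11 and at 25 months, against 2 months. It was so for 1 of 4 plasmacytoid genes at 25 against 2 months. Over all probesets the share was 35.8% at 11 and 30.0% at 25 months. The one-way test called 0 genes of either list. The summed intensity of B and plasma cell markers was 474 units in replicate 6 at 2 months and 262 to 323 in the other 17 arrays. Endothelial markers had 4 of 10 lower at 25 than at 2 months, beside 6.95% of all probesets, namely Tie1 (-0.24, adjusted p = 0.00863), Egfl7 (-0.33, adjusted p = 0.0103), Tek (-0.32) and Pecam1 (-0.15), the last pair named after their values were seen. At 11 months 1 of the 10, Egfl7, was lower (-0.28) and 1, Emcn, higher (0.23), beside 7.18% and 11.9% of all probesets. The 4 became 2 without replicate 5 at 2 months. The calls of Tnnt3, C1qc, Csf1r, Cd68, Cd2, Retnlg, Emcn and, at 11 months, Egfl7 ended without replicate 2 at 2 months, and for each of them without other arrays too (adjusted p up to 0.116). The part of any of these cell types in the values above was not tested.

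Keratinocyte markers stood apart in 1 array, replicate 4 at 11 months, with a summed intensity of 1990 units. The other 17 arrays lay between 379 and 841. No keratinocyte marker passed in any pair of ages (0 of 8, and 0 by the one-way test). The smallest unadjusted p was that of Sbsn for 25 against 11 months (adjusted p = 0.417). For 11 against 2 months 3 of 8 had an unadjusted p under 0.05, beside 35.8% of all probesets. Without that array Oasl2 had a log2 change of -0.17 for 11 against 2 months (adjusted p = 0.0545), and the other 6 interferon-stimulated genes passed no test.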

How the data were processed

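RNA of gastrocnemius from 18 male mice, 6 per age, was hybridised to 18 arrays. The authors deposited 1 linear intensity value per probeset and array; per the submitters' processing notes these were made with Affymetrix Expression Console 1.2.1, RMA and build mm8. GeneSpring GX 14.9 is the analysis software named in the series text. A filter behind the 15300 probesets is not given in the sources used here.

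Log2 was taken here of the deposited intensity. Of the probesets, 13592 had 1 gene symbol, 941 several and 767 none; each gene used its brightest single-symbol probeset. limma 3.58.1 in R 4.3.3 fitted 1 mean per age over all 18 arrays, with Benjamini-Hochberg adjustment over all probesets per pair of ages and a threshold of 0.05. The number of arrays limits the precision. Motifs were searched in RefSeq promoters of GRCm38.p6, a build other than mm8.

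The members, lists and tests were chosen with earlier results of these data known. Besides the members, named genes were up to 2 per list, direction and pair of ages with the smallest adjusted p, the nearest gene where a list had none, and the 8 of greatest likeness. Alternatives were other normalizations, filters, variance models, array weights, a replicate block, a signal range covariate, fits of 2 ages, the one-way test with Tukey, a threshold of 0.01 and leaving out each array. The model was tested on simulated data.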

Additional observations from a re-analysis of the deposited data

Results flagged for a closer look

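Dixon's test for a single far array was applied to each of the 7 genes at each age, 21 groups of 6 arrays, of which chance alone marks about 1 in 20. It marked 3. Irf7 in replicate 5 at 25 months was high at 6.08 log2 units, with the nearest array at 5.80. Ifit1 in replicate 1 at 2 months was high at 5.69, with the nearest at 5.17. Ifit2 in replicate 4 at 2 months was low at 5.22, with the nearest at 5.65. Their causes were not tested.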

How the results depend on the processing

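The number of the 7 genes called for 11 against 2 months went from 1 to 0 after a further quantile normalization, with the array signal range as a covariate, in the fit of only the 2 ages, at a threshold of 0.01 and without the array of highest keratinocyte markers; leaving out single arrays gave 0 to 2. For 25 against 2 months it went from 0 to 1 by the one-way test with Tukey, with 0 to 1 on leaving out single arrays. For 25 against 11 months it was 0 under every alternative run. Over the 3 ages it went from 1 to 0 with quantile normalization, array weights, the covariate and the threshold of 0.01, with 0 to 1 on leaving out single arrays. With the replicate number as a block the counts were 1, 0 and 0 for the 3 pairs of ages and 1 over the 3 ages. Of 18 same-numbered pairs of arrays from different ages 7 had deviations correlated above 0.1 (range -0.33 to 0.42). Their median r was -0.03, beside 0.01 for the other pairs, so these correlations gave no sign of pairing by number.

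Oasl2 for 11 against 2 months had adjusted p of 0.00999 to 0.198 over its alternatives. Changes of sign in the 7 genes were all among values that passed no test. With the covariate Ifit1 had log2 changes of -0.27 for 11 against 2 months and -0.034 for 25 against 2 months, and Bst2 -0.0088 for 25 against 11 months. Quantile normalization gave 0.0023 for Ifit2 at 11 against 2 months and -0.023 for Rsad2 at 25 against 11 months. Array weights gave -0.0042 for Ifit2 at 25 against 2 months and -0.0201 for Bst2 at 25 against 11 months. Leaving out single arrays gave ranges, for 11 against 2 months, of -0.025 to 0.19 for Ifit1 and -0.055 to 0.024 for Bst2. For 25 against 11 months they were -0.00099 to 0.089 for Irf7, -0.041 to 0.17 for Ifit1, -0.041 to 0.098 for Gbp2, -0.028 to 0.029 for Bst2 and -0.061 to 0.071 for Rsad2. For 25 against 2 months they were -0.013 to 0.12 for Ifit2, -0.11 to 0.022 for Gbp2, -0.055 to 0.025 for Bst2 and -0.12 to 0.014 for Rsad2.

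Over all probesets the 2919 calls for 11 against 2 months became 959 with the covariate, 1256 at the threshold of 0.01 and 1895 without replicate 5 at 11 months. The 23 calls for 25 against 11 months ranged from 3 to 461, the most by the one-way test. For 25 against 2 months 2666 became 1419 at the threshold of 0.01. The alternative with a dimmer probeset per gene could not be run, because each measured gene had 1. Dim signal limits what can be seen in Ifit1 in particular, and the files give no signal of background probes.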
